A study of Mus musculus with 6 samples.

Results

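Claudins are the membrane proteins that seal the gap between neighbouring epithelial cells, and the set described here holds the 10 claudin genes with known use in particular kidney segments. They are Cldn1, Cldn2, Cldn3, Cldn4, Cldn6, Cldn7, Cldn8, Cldn10, Cldn16 and Cldn19. Members were taken by name, through the RefSeq accession of each array probe. No measured value entered this rule, but the set was chosen with earlier results of these data known. They are 10 of the 20887 genes that could be named on the array. They had 12 probes, of which 11 passed the filter on dim signals, and all 10 genes kept at least 1 probe.

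Expression was compared between MUT and WT cells of the ureteric bud lineage, sorted by fluorescence (GFP and tdTomato) from kidneys of salt-stressed C57BL/6 mice at postnatal day 1. MUT cells were Hoxb7cre+; R26RtdTomato; Bdkrb2f/f, and lacked the bradykinin B2 receptor gene where Cre had acted. WT cells were Hoxb7cre+; R26RtdTomato; Bdkrb2+/+. Both groups thus carried the Cre driver and the reporter, both were under salt stress, and the Hoxb7 promoter limited the deletion to the ureteric bud and the collecting ducts that grow from it. Each group had 3 pools. How many mice went into each is not stated in the sources used here. Each of the 6 arrays carried a pool in Cy5 and the RNA of WT pool 1 in Cy3. Values are log2 ratios of the pool to WT pool 1 RNA, so the array of WT pool 1 set that RNA against itself. Its 10 claudin ratios ran from -0.17 to 0.30.

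All arrays lay on 1 slide, with MUT pools 1 to 3 and WT pool 1 in row 1 and WT pools 2 and 3 in row 2. The Bdkrb2 probe was not well above background in Cy5 on any MUT or WT array, so it does not check the labels. Of 14594 named genes tested, 18.7% were called lower in MUT cells and 14.0% higher, so changes were widespread. The sort was for collecting duct cells, and the 8 principal cell markers tested were above background on all arrays. Markers of other cells were above background there too. They were the 6 markers of the thick ascending limb, 8 of the proximal tubule, 6 of podocytes and parietal epithelium, 7 of renal stroma, 5 of endothelium, 5 of leukocytes and 6 of erythroid cells. In pooled RNA of this kind, fewer cells of a type and less RNA in each cell cannot be told apart. P-values measure the spread between these pools.

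A claudin crosses the membrane several times, and its extracellular loops meet those of claudins on the next cell. Some claudins close the path between cells, and others form a pore through it that lets particular ions or water pass. Each nephron segment has its own mixture, which sets how leaky the segment is and to what. Claudin-2 and the proximal form of claudin-10 make pores in the proximal tubule, claudin-10, claudin-16 and claudin-19 serve the thick ascending limb, and claudin-3, claudin-4, claudin-7 and claudin-8 line the distal nephron and collecting duct. Claudin-6 is known from fetal epithelia, and claudin-1 from the parietal cells of Bowman's capsule.

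Of the 10 claudin genes, 7 fell in MUT cells, 1 rose and 2 were not called by limma with Benjamini-Hochberg adjustment over all tested probes at 0.05. The 8 called genes compare with 32.8% of all tested genes called in either direction, and by probe 9 of 11 were called, against 26.1% of all tested probes. The 7 that fell were the thick limb and collecting duct claudins, and 6 of them fell by at least 2-fold, which 5.22% of tested genes did. The median change of the 10 genes was -1.50 on the log2 scale, against -0.02 over all tested genes. In 7 of the 10 genes every MUT pool lay below every WT pool, which held for 28.3% of tested genes. With Cldn1, 8 genes had pools that did not overlap in either direction, as did 52.5% of tested genes. Among all tested genes 0.493% had a lower change than Cldn10, 0.514% lower than Cldn16 and 1.04% lower than Cldn4. For Cldn7 this share was 3.56%, for Cldn3 6.04%, for Cldn6 22.3% and for Cldn2 35.9%.

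**Figure D1:**
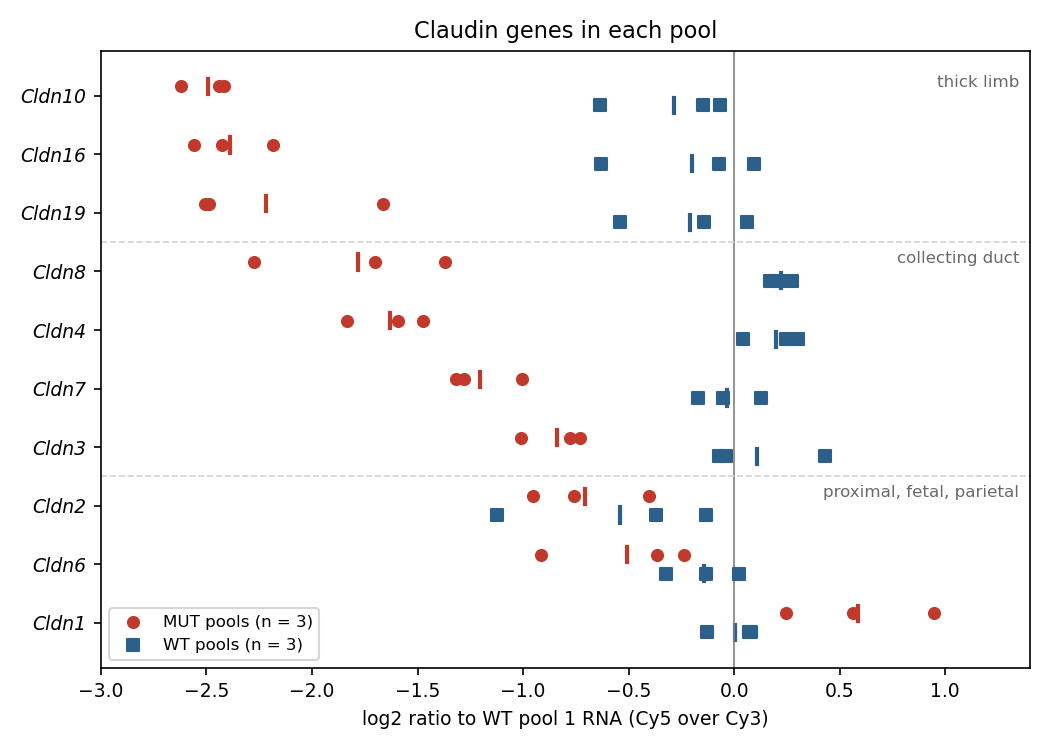
Log2 ratio of each pool to WT pool 1 RNA (horizontal axis) for the 10 claudin genes, grouped by the segment they are known from. Circles are the 3 MUT pools, squares the 3 WT pools and short bars the group means. The thick limb and collecting duct claudins have MUT pools to the left of all WT pools, the pools of Cldn2 and Cldn6 overlap, and the MUT pools of Cldn1 lie to the right.

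The 3 claudins of the thick ascending limb had the largest falls of the 10 over all 6 arrays, between 4.03-fold and 4.62-fold, with Cldn8 close to them. Claudin-16 and claudin-19 bind each other and form the cation-selective path through which calcium and magnesium are taken up in this segment. Loss of either is known to cause magnesium wasting in people. Cldn16 had log2 ratios of -2.42, -2.56 and -2.19 in MUT pools 1 to 3, against 0.09, -0.63 and -0.07 in WT pools 1 to 3. Every MUT pool lay far below every WT pool, and WT pool 2 was the lowest of the WT pools. The group means were -2.39 ± 0.19 in MUT and -0.20 ± 0.38 in WT (SD, n = 3 each). Cldn16 fell by 2.19 ± 0.20 (SE) on the log2 scale in MUT cells, 4.56-fold (limma, adjusted p = 0.000475). On the scanner's own scale, the Cldn16 spot had Cy5 signals above background of 341, 322.5 and 316 in MUT pools and 1792.5, 811.5 and 1343 in WT pools. The WT pool 1 RNA in Cy3 gave 930, 841.5 and 597 on the MUT arrays and 563, 705.5 and 916 on the WT arrays, so the common RNA did not separate the groups on this spot.

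Cldn19 had log2 ratios of -2.51, -2.49 and -1.66 in MUT pools, against 0.06, -0.54 and -0.14 in WT pools. MUT pool 3 was less low than the other MUT pools, and the groups did not overlap. Cldn19 fell by 2.01 ± 0.25 on the log2 scale, 4.03-fold (limma, adjusted p = 0.00131). Claudin-10 exists in forms made from different first exons, and the thick limb form is a sodium pore. Which form the array probe reads was not determined here. Cldn10 had log2 ratios of -2.44, -2.62 and -2.42 in MUT pools, against -0.15, -0.64 and -0.07 in WT pools. The MUT pools lay close together, and WT pool 2 again was the lowest WT pool. Cldn10 fell by 2.21 ± 0.16 on the log2 scale, 4.62-fold (limma, adjusted p = 0.000368). With these loess values that was the largest change among the 10 genes over all 6 arrays. The step from Cldn16 was only -0.02 ± 0.10. In the authors' value table Cldn16 had the larger fall, at -2.51 against -2.21 for Cldn10.

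The promoters of the 3 thick limb claudins are shown as a description of the sequence, and their likeness was not measured. For Cldn19 only the first of its listed starts is shown. Each line gives the 100 bases before a RefSeq transcript start in build GRCm38.p6, read 5′ to 3′ on the gene's own strand, which is the plus strand for all 4 stretches. CAGGTG was searched for on both strands, as were ACCGGTT and the TATA box letters TATAAA. These 4 stretches hold none of these motifs, so no letters are in capitals.
Cldn10, first listed start, chr14:118787771-118787870: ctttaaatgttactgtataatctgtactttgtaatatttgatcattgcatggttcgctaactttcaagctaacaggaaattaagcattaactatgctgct
Cldn10, other start, chr14:118854850-118854949: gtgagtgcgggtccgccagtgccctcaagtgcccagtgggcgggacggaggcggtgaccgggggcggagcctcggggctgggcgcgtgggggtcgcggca
Cldn16, chr16:26463035-26463134: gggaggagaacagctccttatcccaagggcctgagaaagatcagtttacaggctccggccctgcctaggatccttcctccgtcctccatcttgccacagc
Cldn19, chr4:119255341-119255440: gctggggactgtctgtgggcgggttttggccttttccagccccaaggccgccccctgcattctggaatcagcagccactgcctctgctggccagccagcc
The RefSeq table holds 300-base windows around transcript starts for 9 of the 10 members, all but Cldn8, in 12 windows. The window at the first listed Cldn10 start had a GC content of 36% and that at the other start 72%, against a median of 52.7% over all 32851 windows. TATAAA was found in 13.6% of all windows, and among the claudins at -35 to -30 in the Cldn2 window. The motif of grainyhead factors, ACCGGTT, was in 1.02% of all windows and in 0 of the 12 claudin windows. A match in letters is a description of the sequence and not evidence that a factor binds there.

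The markers of the thick ascending limb moved in the same direction. All 6 that were tested fell, with a median change of -2.83. Their median per pool was -3.08, -3.39 and -2.80 in MUT pools, against 0.05, -0.75 and 0.14 in WT pools. WT pool 2 was thus lower than the other WT pools for the thick limb markers as it was for Cldn10, Cldn16 and Cldn19. The median of the 3 claudins was -2.44, -2.56 and -2.19 in MUT pools and 0.06, -0.63 and -0.07 in WT pools. The part of the markers' shift in the fall of these claudins was not tested. Without WT pool 2, the changes of Cldn10, Cldn16 and Cldn19 were -2.38, -2.40 and -2.18, with adjusted p of 0.000587, 0.000813 and 0.00365 in limma.

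The 4 collecting duct claudins fell by 1.92-fold to 4.01-fold. Claudin-4 and claudin-8 depend on each other for assembly into the collecting duct junction, where they form a path for chloride. Cldn8 had log2 ratios of -2.27, -1.70 and -1.37 in MUT pools, against 0.27, 0.22 and 0.17 in WT pools. The WT pools lay close together, and the MUT pools were spread over a wider range below them. The group means were -1.78 ± 0.46 in MUT and 0.22 ± 0.05 in WT (SD, n = 3 each). Cldn8 fell by 2.00 ± 0.21 on the log2 scale, 4.01-fold (limma, adjusted p = 0.00067). Its spot was bright, with Cy5 signals above background of 3697, 4609.5 and 4183.5 in MUT pools and 13105, 9469 and 11217 in WT pools. The Cy3 signals of WT pool 1 RNA were 6665, 5124.5 and 3516 on the MUT arrays and 3461, 4078 and 6030 on the WT arrays.

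Cldn4 was read by 2 probes, and both gave the same direction. The brighter had log2 ratios of -1.59, -1.83 and -1.47 in MUT pools, against 0.30, 0.25 and 0.04 in WT pools. The dimmer had -1.68, -1.68 and -1.21 in MUT pools, against 0.09, 0.13 and -0.02 in WT pools. No MUT pool came near a WT pool on either probe. Cldn4 fell by 1.83 ± 0.13 on the brighter probe, 3.55-fold (limma, adjusted p = 0.000368), and by 1.59 ± 0.15 on the dimmer one, 3.01-fold (adjusted p = 0.000484).

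Claudin-7 lies along the whole lateral membrane as well as at the junction, and mice without it are known to lose salt. Cldn7 had log2 ratios of -1.28, -1.32 and -1.01 in MUT pools, against -0.17, 0.13 and -0.05 in WT pools. It fell by 1.17 ± 0.13 on the log2 scale, 2.25-fold (limma, adjusted p = 0.00082). Cldn3, a sealing claudin, had log2 ratios of -0.73, -1.01 and -0.78 in MUT pools, against -0.04, 0.43 and -0.07 in WT pools. WT pool 2 was the highest pool for Cldn3, in contrast to its place for the thick limb claudins. Cldn3 fell by 0.94 ± 0.16, 1.92-fold (limma, adjusted p = 0.00443).

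The 100 bases before starts of Cldn4, Cldn7 and Cldn3, and of the fetal claudin Cldn6, are shown with the E-box CAGGTG marked. Snail and Zeb factors are known to repress claudin genes through this E-box. Their genes were higher in MUT cells, and their part in the claudin changes was not tested. Capitals mark CAGGTG or its reverse complement CACCTG. Build GRCm38.p6 is used again, and Cldn4 is on the minus strand.
Cldn4, chr5:134946935-134947034: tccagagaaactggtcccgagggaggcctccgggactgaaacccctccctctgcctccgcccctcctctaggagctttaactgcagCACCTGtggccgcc
Cldn7, chr11:69965321-69965420: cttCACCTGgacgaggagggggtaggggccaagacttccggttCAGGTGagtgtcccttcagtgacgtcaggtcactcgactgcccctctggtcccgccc
Cldn3, chr5:134986114-134986213: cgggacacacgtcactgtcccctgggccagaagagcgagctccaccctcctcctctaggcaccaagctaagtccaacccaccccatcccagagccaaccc
Cldn6, chr17:23679265-23679364: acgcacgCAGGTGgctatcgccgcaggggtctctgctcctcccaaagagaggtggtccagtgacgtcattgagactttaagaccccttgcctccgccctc
CAGGTG was present on either strand in 20.2% of all 32851 windows. Whether the claudin windows hold it more often than other windows was not tested. In the Cldn4 window it stood at -14 to -9 on the opposite strand and again at 11 to 16 after the start. Of the 2 Cldn7 windows, the one shown had it at -97 to -92 on the opposite strand and at -57 to -52, and the other had none. The Cldn3 window had it only after the start, at 31 to 36, outside the letters shown. The Cldn6 window had it at -93 to -88 and at 40 to 45, and Cldn6 was not called. The windows of Cldn1, Cldn2, Cldn10, Cldn16 and Cldn19 held no CAGGTG, and 3 of these genes fell.

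The markers of principal cells and of the ureteric lineage fell beside the collecting duct claudins. All 8 principal cell markers tested fell, with a median change of -1.97, and 8 of 10 ureteric lineage markers fell, with a median of -1.43. The median of the ureteric markers was -1.54, -1.23 and -0.89 in MUT pools, against -0.08, 0.29 and 0.03 in WT pools. The median of the 4 collecting duct claudins was -1.44, -1.51 and -1.19 in MUT pools, against 0.12, 0.23 and -0.00 in WT pools. These medians were highest in WT pool 2 among the WT pools, while that of the principal cell markers was -0.11, -0.14 and -0.00 in WT pools 1 to 3. Intercalated cells, which handle acid and base in the collecting duct, had 7 of 7 markers lower in MUT cells, with a median change of -2.42. Their median was -2.59, -2.63 and -2.30 in MUT pools, against -0.05, -0.48 and 0.27 in WT pools, so these collecting duct markers were low in WT pool 2 as the thick limb ones were. Markers of other cells moved as well. In MUT cells 4 of 4 distal convoluted tubule markers (median -1.74), 6 of 6 erythroid markers (median -2.52) and 4 of 5 endothelial markers (median -0.81) fell. Renal stroma markers were higher for 6 of 7 (median 2.06), nephron progenitor and early nephron markers for 4 of 7 (median 0.83), and leukocyte markers for 4 of 5 with 1 lower (median 1.23). The part of any of these markers in the changes of the claudins was not tested.

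**Figure D2:**
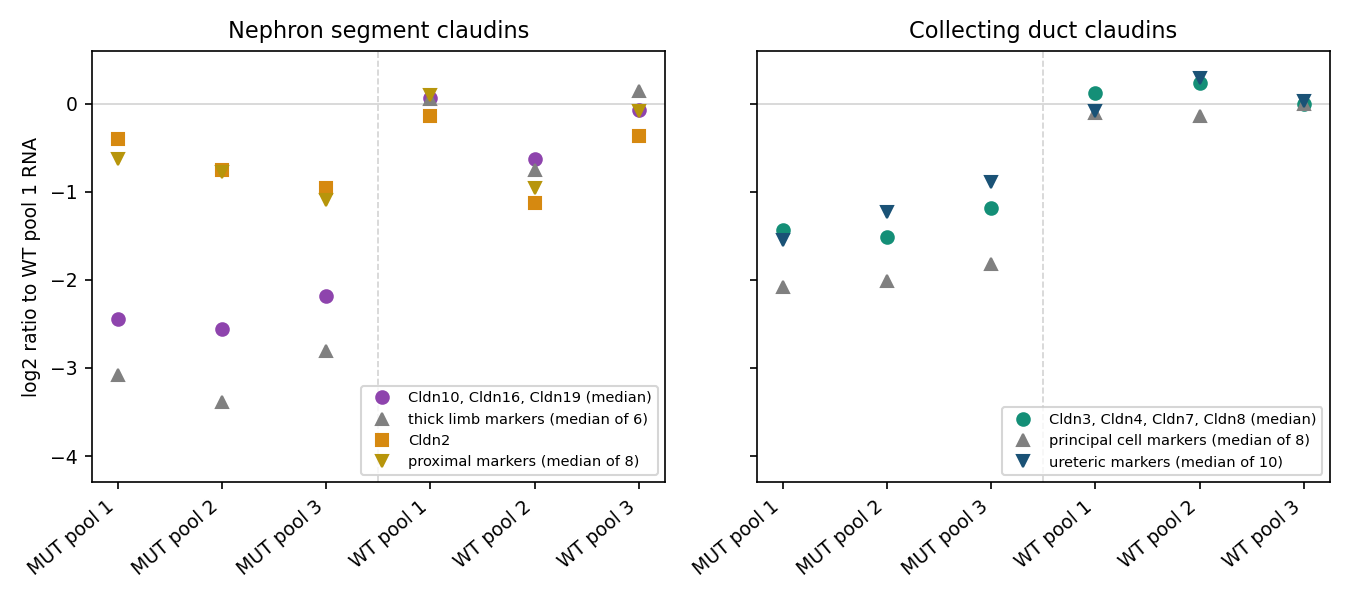
Median log2 ratio to WT pool 1 RNA (vertical axis) in each of the 3 MUT and 3 WT pools. The left panel shows the thick limb claudins, Cldn2 and the markers of the thick limb and proximal tubule, and the right panel the collecting duct claudins with principal cell and ureteric markers. WT pool 2 is at -0.63 for the thick limb claudins, below the other WT pools, and at 0.23 for the collecting duct claudins. For the principal cell markers it is at -0.14, the lowest of 3 close WT values.

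Cldn2 and Cldn6 were not called. Claudin-2 is the cation and water pore of the proximal tubule. Cldn2 had log2 ratios of -0.40, -0.76 and -0.95 in MUT pools, against -0.13, -1.12 and -0.37 in WT pools. The lowest pool of all 6 was WT pool 2, and the groups overlapped. The change was -0.16 ± 0.26 (limma, adjusted p = 0.678). Of the 8 proximal tubule markers 4 fell, with a median of -0.73, and their median per pool was -0.63, -0.78 and -1.10 in MUT pools, against 0.10, -0.95 and -0.09 in WT pools. Cldn2 and these markers thus had the same low WT pool. Without WT pool 2 the Cldn2 change was -0.45, still not called (adjusted p = 0.14). The other Cldn2 probe was above background on 2 MUT and 2 WT arrays and was not tested.

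Cldn6 had log2 ratios of -0.24, -0.91 and -0.36 in MUT pools, against -0.14, 0.02 and -0.32 in WT pools. Only MUT pool 2 was clearly below the WT pools. The change was -0.36 ± 0.19 (limma, adjusted p = 0.193). Leaving out MUT pool 1 gave -0.49 with an adjusted p of 0.0469, so that pool decided whether Cldn6 was called.

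Cldn1 was the only one of the 10 genes that was higher in MUT cells. Claudin-1 is a sealing claudin, best known from skin and liver. Cldn1 had log2 ratios of 0.94, 0.56 and 0.25 in MUT pools, against 0.07, 0.08 and -0.13 in WT pools. Every MUT pool was above every WT pool, and the MUT pools were spread over a wider range. It rose by 0.58 ± 0.18, 1.49-fold (limma, adjusted p = 0.0461), and 9.57% of tested genes had a higher change. Its spot was dim, with Cy5 signals above background of 348, 195 and 89.5 in MUT pools and 63, 47 and 48 in WT pools. The call was lost in 8 of 18 alternatives, among them each that left out a WT pool. Dropping WT pools 1, 2 and 3 in turn gave adjusted p of 0.101, 0.0923 and 0.166, and dropping MUT pool 2 gave 0.0989. Its direction was kept in all 18, with changes between 0.40 and 1.55. The change was 1.16 in the authors' value table (adjusted p = 0.048) and 1.14 with the scanner software's processed signals (adjusted p = 0.0521). Of 6 podocyte and parietal markers 2 were higher in MUT cells, with a median change of 0.18, and their part in the Cldn1 change was not tested.

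**Figure D3:**
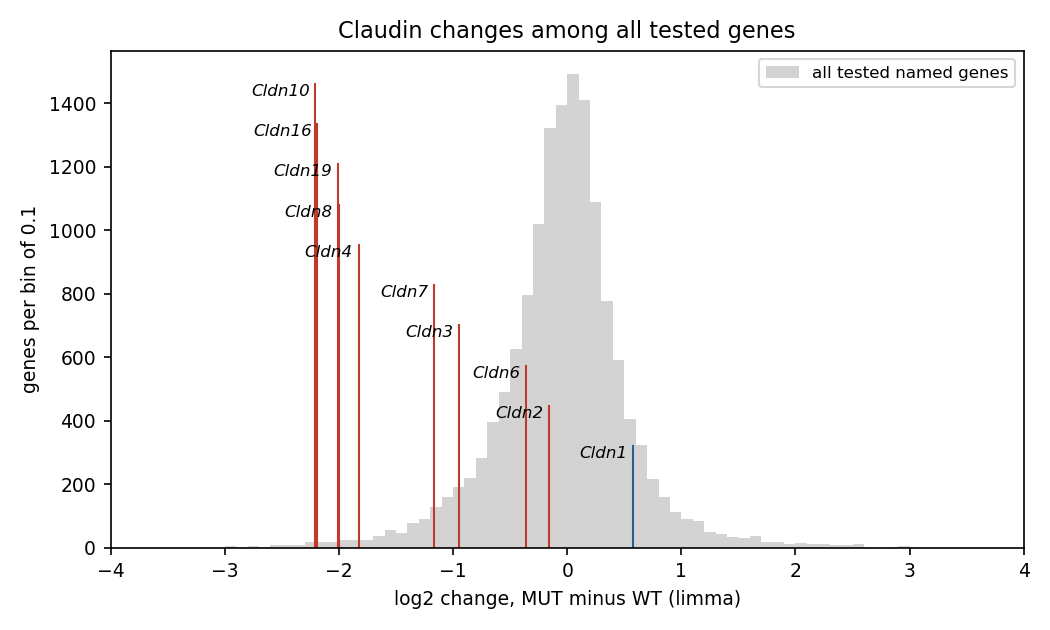
Histogram of the log2 change, MUT minus WT, over the 14594 tested named genes, in bins of 0.1, with a vertical line at the change of each claudin gene. The line heights only separate the names. Cldn10, Cldn16, Cldn19, Cldn8 and Cldn4 stand in the left tail, below -1.8, and Cldn1 is the only claudin line right of 0.

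Ordered by change, the genes were Cldn10, Cldn16, Cldn19, Cldn8, Cldn4, Cldn7, Cldn3, Cldn6, Cldn2 and Cldn1, from the largest fall to the rise. For each of the 9 neighbouring pairs the difference of the changes was compared over the pools by a two-sided exact permutation test, whose smallest possible p with 3 against 3 pools is 0.1. No pair can therefore pass 0.05. The pairs were also set by the order of these same values, which fixed the sign of each step. The p-values thus decide nothing about the order, and the steps are given as sizes. From Cldn10 to Cldn4 the steps were 0.18 or less in size, within their errors, with exact p between 0.7 and 0.9. The step between Cldn4 and Cldn7 was -0.66 ± 0.14 (exact permutation p = 0.1, adjusted p = 0.45), and that between Cldn3 and Cldn6 was -0.58 ± 0.15 (exact permutation p = 0.1, adjusted p = 0.45). In these 2 pairs the pools of the groups did not overlap. The largest step in size was that between Cldn2 and Cldn1, at -0.74 ± 0.33, with pools that overlapped (exact permutation p = 0.2, adjusted p = 0.45). The step between Cldn7 and Cldn3 was -0.23 ± 0.13 (exact permutation p = 0.2, adjusted p = 0.45), and that between Cldn6 and Cldn2 was -0.20 ± 0.43 (exact permutation p = 0.7, adjusted p = 0.9).

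Row 1 of the slide held both groups, and row 2 held WT pools alone. With row as a block the MUT pools are set against WT pool 1 alone, whose array carried the same RNA in both dyes. WT pools 2 and 3 then add only to the estimate of the spread, and WT pool 1 is assumed to vary like the other pools. The block therefore gives no replicated comparison within a row. In this fit the changes of Cldn10 and Cldn16 were -2.34 and -2.48 (limma, adjusted p = 0.0143 for both). Cldn19 had -2.28 (adjusted p = 0.0194), Cldn8 -2.06 (adjusted p = 0.0191), Cldn4 -1.93 (adjusted p = 0.0143) and Cldn7 -1.03 (adjusted p = 0.0259). The Cldn3 and Cldn1 calls were lost, with values of -0.80 (adjusted p = 0.0924) and 0.52 (adjusted p = 0.309). Cldn6 and Cldn2 had -0.37 and -0.57 and were not called, as without the block.

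The zero of these values depends on the scaling. Loess sets the bulk of genes to no change. The 10 spike-in control probes had log2 ratios of -0.77, -0.76 and -0.28 in MUT pools, against -0.09, 0.28 and 0.93 in WT pools. Setting them equal instead moved the median of all tested probes by 0.98. It called 19186 of 29002 probes, 99% of them higher in MUT. Under that scaling Cldn10 fell by 1.23, Cldn16 by 1.21, Cldn19 by 1.04, Cldn8 by 1.03 and Cldn4 by 0.85, and all 5 were still called (limma, adjusted p between 0.00709 and 0.0449). Cldn7, at -0.19, was no longer called, Cldn3 turned to 0.03, Cldn6 to 0.61 and Cldn2 to 0.81. Cldn1 rose by 1.55 under that scaling (adjusted p = 0.000902). Each claudin had the same SE of 0.39 in that fit. This SE comes from a variance that limma pooled over all probes, and is not the measured spread of each claudin. The scaling moves all probes of an array by 1 shared shift. The limma fit treats probes as independent, so the calls under that scaling rest on 6 shared array shifts. Since the shift is the same for every gene, the changes relative to the median gene and the order of the claudins were as before.

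**Figure D4:**
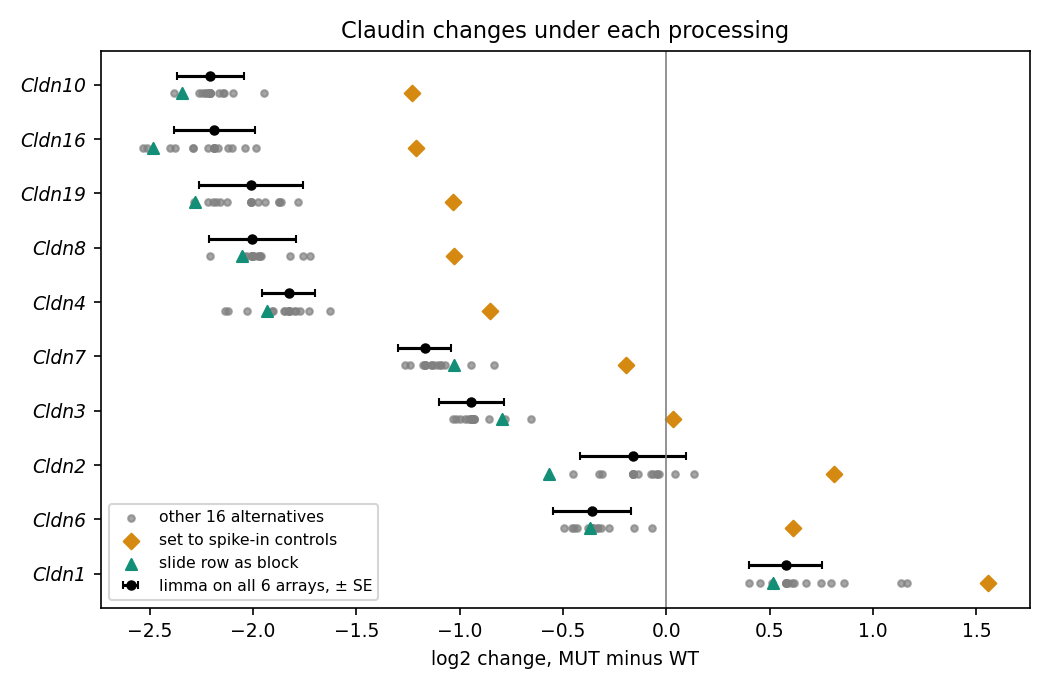
Log2 change, MUT minus WT, of the 10 claudin genes by limma on all 6 arrays (black, ± SE) and under 18 alternatives. Diamonds mark scaling to the spike-in controls, triangles slide row as a block, and grey points the other 16. Cldn10, Cldn16, Cldn19, Cldn8 and Cldn4 stay left of 0 throughout, and Cldn3, Cldn2 and Cldn6 cross 0 under the spike-in scaling.

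For each claudin the genes with the most similar values were sought among all tested genes that are no claudin, by the root mean square difference of log2 ratios over the 6 arrays. Nearest to Cldn10 was Bsnd (0.130), the barttin subunit of chloride channels in the thick limb and distal nephron, and then Slc4a11 (0.130). Slc4a11 (0.114), a membrane transporter, was also the nearest to Cldn16, followed by B830017H08Rik (0.125). Ly6a (0.1515) and the simple epithelial keratin Krt7 (0.170) were nearest to Cldn19. Aqp4 (0.150), a water channel of the principal cell's basolateral membrane, was nearest to Cldn4, then Pigz (0.1705). Cldn8 had Gca (0.113) and Rnf128 (0.143), Cldn7 had Anxa11 (0.0909) and Rgl3 (0.0935), and Cldn3 had Pde8b (0.0834) and Btc (0.119).

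The nearest to Cldn2 were Pcx (0.118) and Amn (0.133). Amn encodes amnionless, the partner of cubilin in proximal tubule uptake. Cldn6 had Ptk2b (0.105) and 1700001O22Rik (0.116), and Cldn1 had Rps6ka5 (0.0471) and Cibar1 (0.0575). These values describe 6 arrays that share 1 RNA in Cy3, and carry no test.

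Some of the claudin genes are neighbours on a chromosome. Cldn3 and Cldn4 lie next to each other on chromosome 5, and both fell. Cldn1 and Cldn16 lie next to each other on chromosome 16, and Cldn1 was higher while Cldn16 fell. On the other side of Cldn16 lies Tmem207, which fell by 0.85 ± 0.11 (limma, adjusted p = 0.00128). Cldn6 lies between Tnfrsf12a, a receptor of the tumour necrosis factor family that fell by 1.10 ± 0.20 (adjusted p = 0.00597), and Cldn9, whose change was 0.07 ± 0.15 (adjusted p = 0.746). The other neighbours that were tested, Morc4, Wbscr25, Mettl27, Elp5 and Ybx1, were not called, with changes between -0.50 and 0.28.

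Of the claudins outside the 10, 9 were tested, of which 2 fell, 1 rose and 6 were not called. Among all tested genes 18.7% were called lower and 14.0% higher, so these counts are near those shares. The median change of the 9 was -0.08. Cldn14, whose protein is known to block the claudin-16 and claudin-19 path in the thick limb, had log2 ratios of -1.62, -1.68 and -1.69 in MUT pools, against -0.13, -0.98 and -0.18 in WT pools. WT pool 2 was again the low WT pool. Cldn14 fell by 1.23 ± 0.22, 2.35-fold (limma, adjusted p = 0.00546). Cldn15, a cation pore of the intestine, had -0.35, -0.96 and -0.98 in MUT pools, against -0.15, -0.11 and -0.07 in WT pools, and fell by 0.66 ± 0.17 (adjusted p = 0.0282). Cldn11, known from myelin and the testis, had 0.90, 1.10 and 0.52 in MUT pools, against 0.10, 0.05 and -0.05 in WT pools, and rose by 0.80 ± 0.15, 1.74-fold (adjusted p = 0.00747). Cldn5, the claudin of endothelial junctions, was not called at 0.35 ± 0.15 (adjusted p = 0.133), nor were Cldn9, Cldn12, Cldn34c1, Cldnd1 and Cldnd2. Set to the spike-in controls, 0 of the 9 fell and 5 rose. That scaling called 19186 of all 29002 tested probes, 99% of them higher.

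Claudins work in a junction with other membrane proteins and with the scaffold beneath them. All 25 genes of the tight junction list were tested, and 15 fell and 3 rose, against 18.7% and 14.0% of all tested genes. The other 7 were not called, and the median change of the list was -0.68. With the spike-in scaling 1 of the 25 fell and 7 rose, where 19186 of all 29002 tested probes were called, 99% of them higher. Ildr1, an angulin that places tricellulin where 3 cells meet, had log2 ratios of -2.01, -1.91 and -1.45 in MUT pools, against 0.14, -0.18 and 0.27 in WT pools, and fell by 1.86 ± 0.18 (limma, adjusted p = 0.000534). The scaffold genes Tjp3 and Cgn fell by 1.34 ± 0.13 (adjusted p = 0.000538) and 1.31 ± 0.12 (adjusted p = 0.00049). Marveld3, a relative of occludin, fell by 1.30 ± 0.15 (adjusted p = 0.000887).

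The 3 that rose were Jam3, Ybx3 and Tjp1. Jam3, a junctional adhesion molecule also found on endothelial and stromal cells, had log2 ratios of 1.24, 0.77 and 0.85 in MUT pools, against 0.03, -0.26 and -0.40 in WT pools. It rose by 1.16 ± 0.16 (limma, adjusted p = 0.00212). Ybx3, a DNA-binding protein held at junctions, rose by 0.64 ± 0.19 (adjusted p = 0.0455), and Tjp1, which encodes the scaffold ZO-1, by 0.36 ± 0.11 (adjusted p = 0.0492). Tjp1 and Tjp3, which encode related scaffolds, were thus called in opposite directions under loess.

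Of 19 tested genes of the list of claudin partners and regulators, 10 fell and 6 rose, with a median of -0.48. Of all tested genes 18.7% fell and 14.0% rose. With the spike-in scaling 1 of the 19 fell and 8 rose, again beside 19186 of 29002 probes called, 99% of them higher. Casr encodes the calcium-sensing receptor, which controls claudin-14 and with it calcium uptake in the thick limb. It had log2 ratios of -3.14, -3.04 and -2.46 in MUT pools, against 0.14, -0.58 and 0.25 in WT pools. Casr fell by 2.82 ± 0.25, 7.05-fold (limma, adjusted p = 0.000475). Sgk1, a kinase induced by aldosterone, fell by 1.71 ± 0.12 (adjusted p = 0.000368). The membrane protease gene Prss8 fell by 1.30 ± 0.14 (adjusted p = 0.000656).

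The regulators that rose included the repressors of epithelial genes that bind CAGGTG. Snai2 had log2 ratios of 2.74, 2.13 and 2.12 in MUT pools, against 0.30, -0.38 and -0.40 in WT pools, and rose by 2.49 ± 0.24, 5.62-fold (limma, adjusted p = 0.000511). Zeb1 rose by 1.26 ± 0.13 (adjusted p = 0.000584) and Snai1 by 1.21 ± 0.15 (adjusted p = 0.00137). The grainyhead genes, which encode activators of epithelial junction genes, were called in opposite directions. Grhl1 rose by 1.18 ± 0.12 (adjusted p = 0.000584), and Grhl2, named here after its values were seen, fell by 1.43 ± 0.16 (adjusted p = 0.000838). The renal stroma markers were higher in the same pools, with medians of 1.59, 1.31 and 1.14 in MUT pools and 0.04, -1.01 and -1.41 in WT pools. Their part in the rise of these regulators was not tested.

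**Figure D5:**
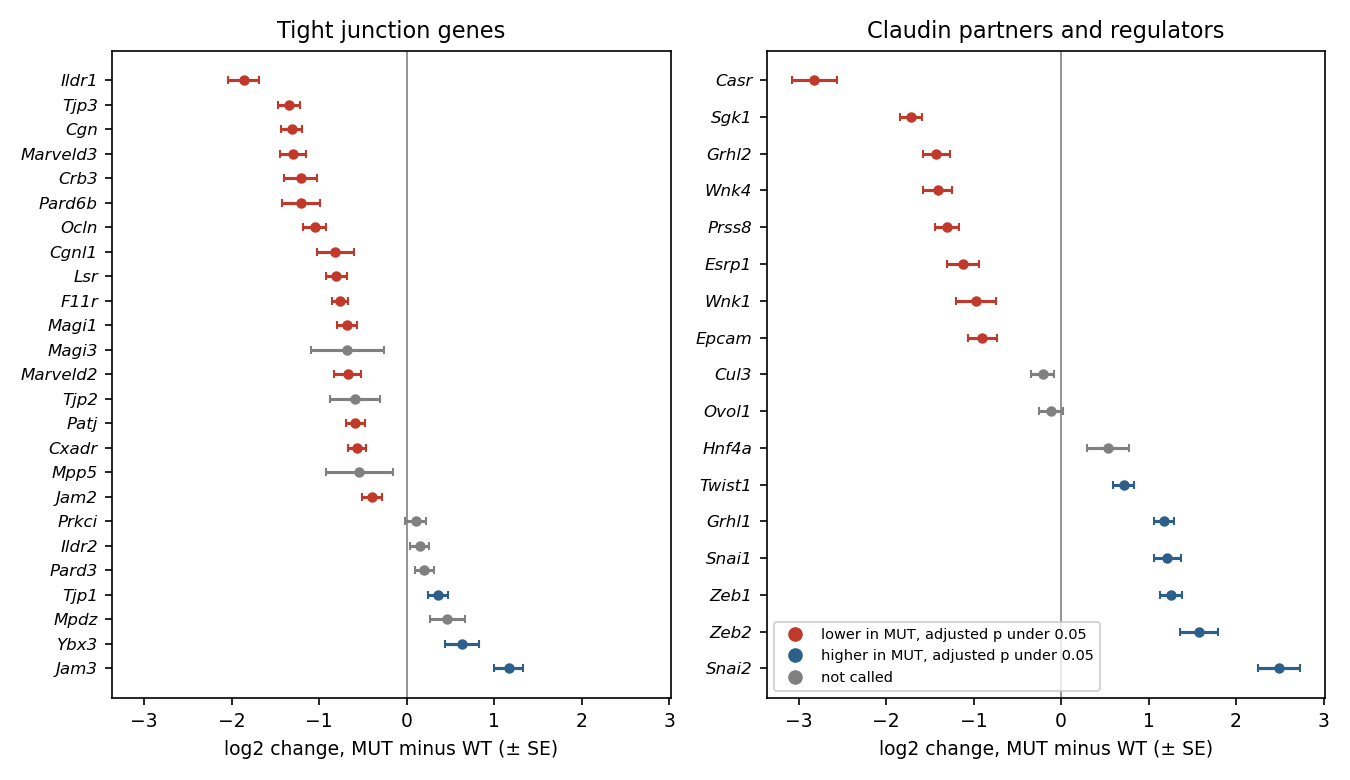
Log2 change, MUT minus WT, ± SE by limma, for the 25 tight junction genes (left) and 17 of the 19 partners and regulators tested (right), with the lowest change at the top. Red points were called lower in MUT, blue points higher and grey points not called. Among the junction genes 15 points are red and 3 blue, and among the regulators plotted 8 are red and 6 blue, with Casr at -2.82 and Snai2 at 2.49.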

How the data were processed

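RNA of 3 MUT and 3 WT pools was hybridised to Agilent mouse whole genome arrays, each pool in Cy5 against WT pool 1 in Cy3, with no dye swap, per the labels. The deposited scanner files hold spot intensity (median signal and local background in each channel) and a log10 ratio, per the file headers. They came from Agilent Feature Extraction, version 10.7.3.1, according to the submitters' processing notes. The log10 ratios of the authors' deposited value table matched these within 0.00499, with a median of 0 on each array, and was used as an alternative.

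Intensities were background-corrected (normexp, offset 50) and normalized within arrays by loess with control spots at weight 0. Outlier spots were left out, and 0 spots were saturated. A probe was tested if its Cy5 signal was well above background throughout MUT or throughout WT, which kept 29002 of 55681 (52.1%). Between 27030 and 31322 probes per array passed this mark, and the number of arrays limits precision. Probes were named through RefSeq accessions matched to GRCm38.p6, which named 27509 probes of 20887 genes. The brightest tested probe stood for its gene. The file headers name build mm9, so no probe position is given. The MUT and WT pools were compared by lmFit and eBayes (limma 3.58.1, R 4.3.3; data.table, version 1.17.8), with adjustment over all 29002 probes, and 7584 (26.1%) were called at 0.05. Figures used Python 3.11.15 with matplotlib 3.10.9. The procedure was also run on simulated data, in which spots varied independently and pools of a group did not differ. That run does not show how well the calls hold under the spread between these pools.

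The members and gene lists were chosen with earlier results of these data known. The text names all members, the other claudins that were tested, their chromosome neighbours, the 2 most similar genes, and from the junction and regulator lists the 4 called genes with the smallest p in each direction. Of the regulator list, Klhl3 was not analysed here, and some members are counted but not reported by name. The design names no pairs of MUT and WT pools, so pool numbers were not taken as pairs. Deviations of same-numbered MUT and WT pools correlated at 0.14, 0.07 and 0.20, above those with other numbers. Alternatives covered background correction, scaling, the dim-probe filter, Cy5 alone, blocks for pool number and slide row, array weights, eBayes with trend and leaving out each pool.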

Additional observations from a re-analysis of the deposited data

How the results depend on the processing

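Across 18 alternatives Cldn4, Cldn8, Cldn10, Cldn16 and Cldn19 kept their direction and stayed called, on the brighter probe for Cldn4. The slide row block is 1 of them and rests on WT pool 1 alone. The spike-in scaling is another, and its calls rest on 6 array shifts shared by all probes. Leaving out each pool gave 3830 to 9531 probes called, with 3830 without WT pool 3, 4891 without WT pool 1 and 9531 without MUT pool 1. It gave 7 to 8 claudins called lower and 0 to 1 called higher. Cldn2 then ran between -0.45 and 0.041, positive without WT pool 1, and Cldn6 was called without MUT pool 1. Set to the spike-in controls, 19186 probes were called, 99% of them higher in MUT, against 44.2% of 7584. Cldn3 then turned to 0.031, Cldn6 to 0.61 and Cldn2 to 0.81. Of the other claudins 0 were then lower and 5 higher, of the junction genes 1 lower and 7 higher, and of the partners and regulators 1 lower. Median centring moved the median probe by 0.23 and called 6033 probes, 77.3% of them higher. It turned Cldn2 to 0.13, left Cldn3 at -0.65 (limma, adjusted p = 0.0581), and called 1 other claudin and 8 junction genes lower. With slide row as a block 2193 probes were called, 31.5% higher, and 0 claudins of the 10 were higher. That count was also 0 with the scanner software's processed signals, with Cy5 alone and without the filter on dim probes. Cy5 alone called 2 other claudins higher, and the authors' value table called 1 lower. With pool number as a replicate block 7248 probes, 7 lower and 1 higher claudins were called, and no claudin call changed. Each pool's deviations correlated best with those of its own number, a hint from the data and not from the design. In other counts the alternatives stayed within 1.5 times the values given. Signal over background limits the second Cldn2 probe, which passed it on 2 arrays of each group.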
